A study of Mus musculus with 12 samples.

Results

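Interferon-stimulated genes are genes whose transcription rises when a cell senses interferon. The 46 genes of this kind described here were taken by name from a list: 37 that lean to type I interferon, 8 interferon-induced GTPases of the Gbp and Irg families, and Irf1, which belongs to both arms. All 46 were found in the annotation of 51707 genes and all 46 passed the filter on low counts, which left 14711 genes in all. RNA was sequenced from wild-type mouse cells labelled MLO-Y4, an osteocyte-like line, grown on plates coated with collagen at 0.15 mg/mL. The deposited files are named MC3 instead, a name the labels do not explain; which line it was has not been tested here. The 4 groups, each represented by 3 libraries, were controls and BIGH3-treated cells in the undifferentiated state, and controls and BIGH3-treated cells in the differentiated state. BIGH3, the secreted matrix protein encoded by TGFBI, was added as recombinant human protein, and the differentiated cells were kept with ascorbic acid at 50 µg/mL, β-glycerophosphate at 4 mM and 10% serum. The sources used here give neither the amount of BIGH3 nor the length of exposure, nor what control cells received, nor the medium of undifferentiated cells, so that differentiation and the medium cannot be told apart. Nothing in the labels ties the replicates to separate cultures, and p-values measure only the spread between these libraries.

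Type I interferons (Ifna and Ifnb1) bind the Ifnar1 and Ifnar2 receptor, and through the kinases Jak1 and Tyk2 a complex that holds Stat2 and Irf9 comes to bind the interferon-stimulated response element (ISRE) of antiviral genes. Interferon gamma binds Ifngr1 and Ifngr2, and acts through Jak1 and Jak2 on genes with gamma-activated sites (GAS), Irf1 among them. The Gbp and Irg GTPases coat vacuoles that hold intracellular pathogens. Many of these genes keep a low standing level without any added interferon, and inflammatory signals that act through NF-kB can also reach some of them, Irf1 and the Gbp genes included.

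Depth was 19014492 to 27612155 estimated reads per library, so that 3 reads, the floor used for a count of 0, were worth 0.105 to 0.168 CPM (TMM-scaled counts relative to library size). Markers of liver, at a summed 2.28 to 4.38 CPM in the lowest library of each group, reached 106 CPM in undifferentiated control 2, 44.4 in differentiated control 2, 49.8 in differentiated BIGH3 3 and 20.4 in undifferentiated BIGH3 1. Leukocyte markers summed to 0.698 to 1.64 CPM over all libraries, with Tyrobp at 0 reads. Of the osteocyte markers, Dmp1, Phex and Pdpn were well covered (7.21 to 294 CPM), while Fgf23 had no read and Sost was read in 2 libraries only, both differentiated controls. Mepe, the last of them, was at 0 to 0.896 CPM. Osteoblast markers summed to 1674 to 3100 CPM over all libraries, most of it Col1a1 (1616 to 3049 CPM).

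In undifferentiated cells no interferon-stimulated gene was called after BIGH3. A gene was called at an adjusted p below 0.05 (edgeR's quasi-likelihood test, Benjamini-Hochberg over all genes tested), and 0 of 46 members passed, against 0.0204% of all genes. Only Gbp5 and Mx2 had an unadjusted p below 0.05, 2 of 46 members against 599 of 14711 genes, and DESeq2 also called 0 members. The median log2 fold change was -0.01 for the type I-leaning genes and -0.01 for the GTPases.

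Most members differed between the states. In control cells 26 of 46 members were lower after differentiation and 10 were higher, against 28.6% and 29.1% of all genes. In bulk RNA, fewer cells of a kind and less RNA per cell cannot be told apart. The median log2 fold change was -0.34 for the type I-leaning genes, -0.37 for the GTPases and -0.01 for all genes tested. Scaling by library totals moved the median of all genes to -0.16 and TPM to -0.28, and the members' medians moved with it. The members' split was then 7 higher and 30 lower with library totals and 6 higher and 32 lower with TPM, while over all genes the share higher among called genes went from 50.5% to 33.2% and 19.9%.

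BIGH3 in differentiated cells raised 13 members and lowered 14, against 22.6% and 22.9% of all genes, so that 27 of 46 members were called where 45.5% of all genes were. The type I-leaning genes held 9 rises and 12 falls, and the GTPases 3 rises and 2 falls. Medians were -0.02 for the type I-leaning genes, -0.04 for the GTPases and -0.01 for all genes. The range within each class was far wider than the gap between their medians: -0.67 to 1.01 for the type I-leaning genes and -0.45 to 2.54 for the GTPases. Gbp5, Ifitm3 and Irf1 led the rises, and Ifi35, Isg15 and Samhd1 led the falls. This comparison and the one between states in control cells share the differentiated controls, so their values are only set side by side.

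**Figure D1:**
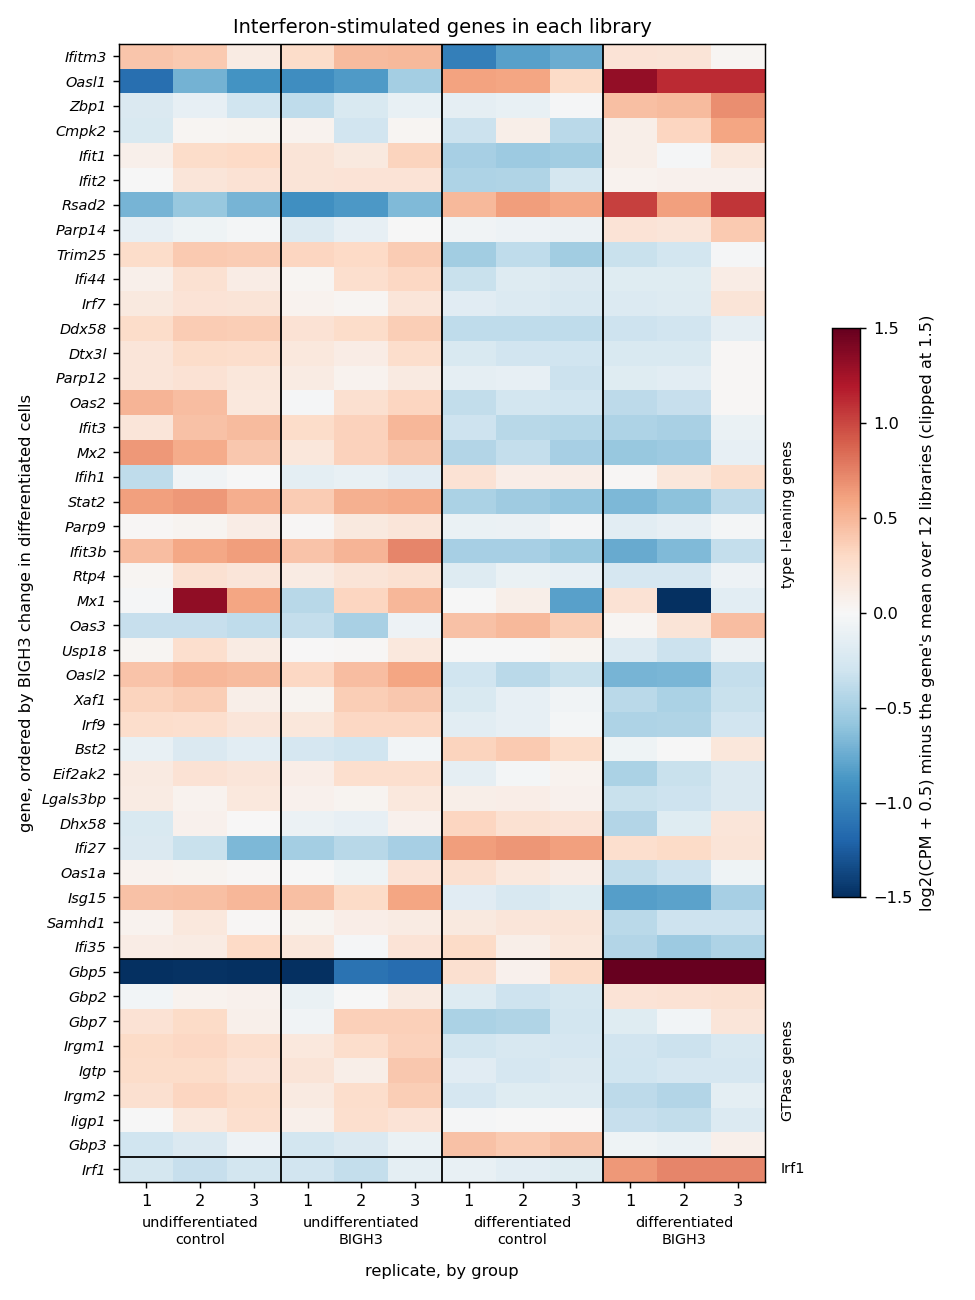
Heat map of all 46 genes (vertical axis, type I-leaning genes, GTPases and Irf1 in blocks, each ordered by the BIGH3 change in differentiated cells) in the 12 libraries (horizontal axis, by group and replicate). Colour is log2(CPM + 0.5) minus the gene's mean over the libraries, clipped at 1.5. Most genes are higher in the undifferentiated libraries, Gbp5 is highest in the 3 differentiated BIGH3 libraries, and Irf1 stands apart in the same 3 libraries.

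**Figure D2:**
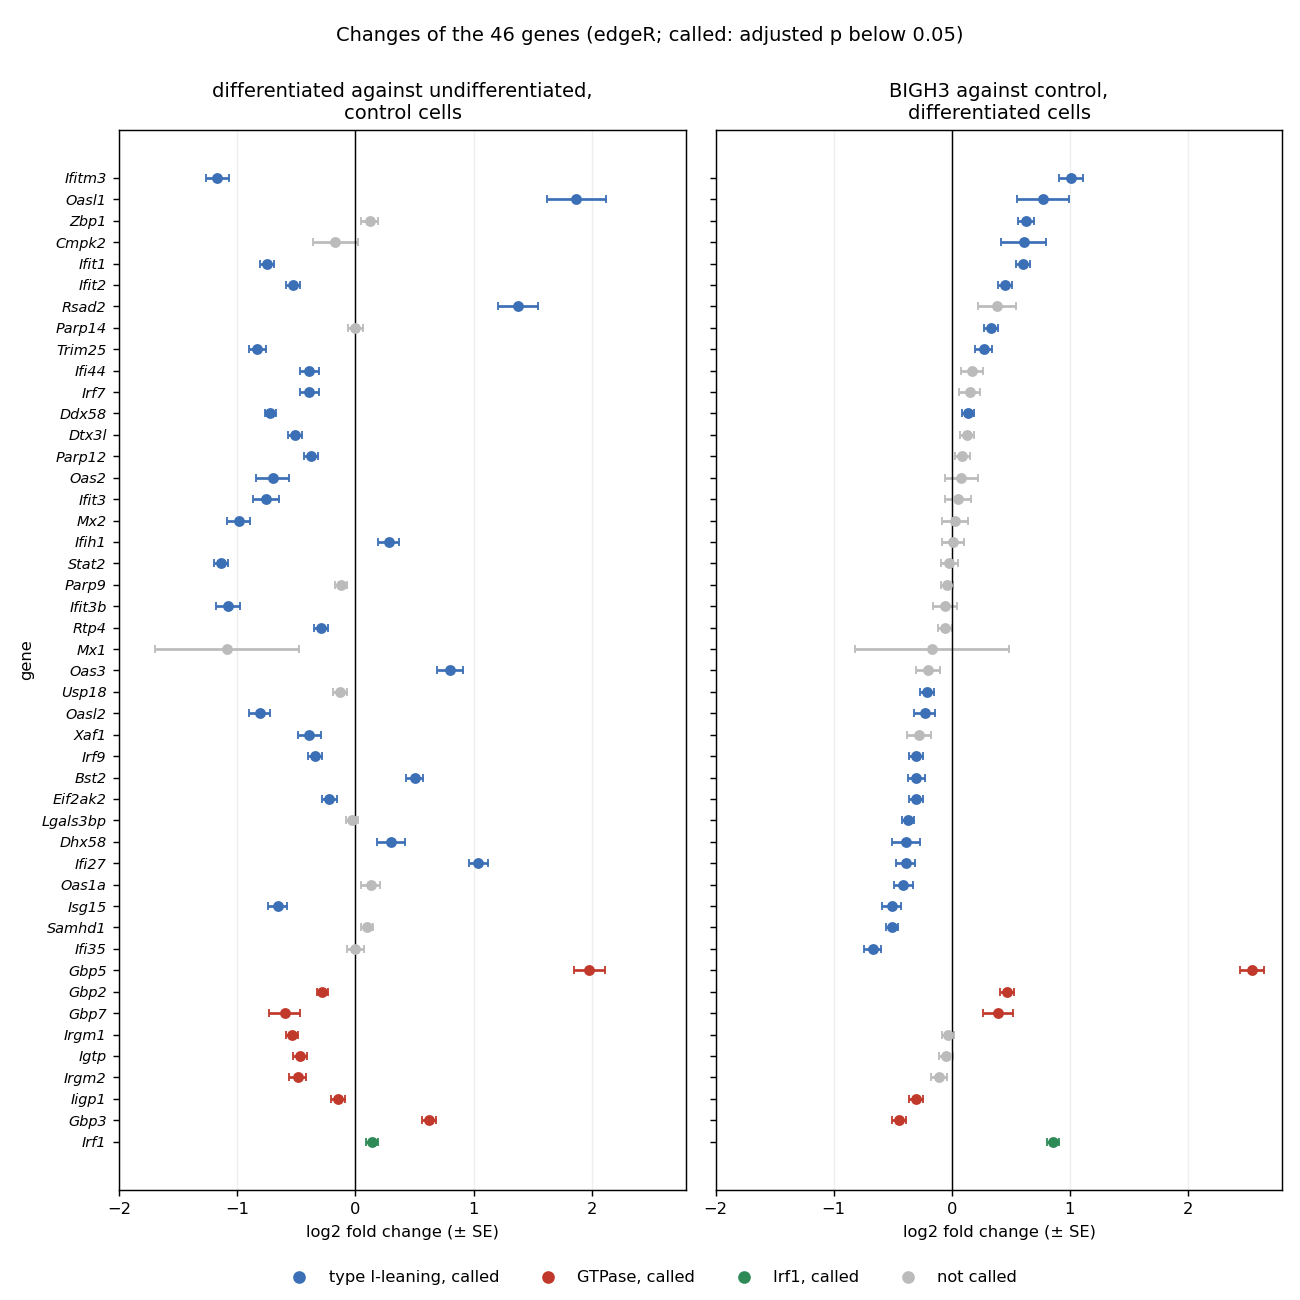
Log2 fold change ± SE of the 46 genes (vertical axis, one gene per line) for differentiated against undifferentiated control cells on the left and for BIGH3 against control in differentiated cells on the right, with n = 3 libraries a group. Blue, red and green points passed an adjusted p of 0.05 and grey points did not. The left panel holds 26 called points below 0 and 10 above, the right panel 14 below and 13 above, with Gbp5 at 2.54.

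By level per transcript length, the leading members were the same in both undifferentiated groups: Ifitm3, a membrane protein that blocks virus entry, at 1287 TPM in controls, the ubiquitin-like modifier Isg15 at 646 TPM and the tetherin Bst2 at 491 TPM. At the other end Gbp5 stood at 1.37 TPM, Rsad2 at 0.907 and Oasl1 at 0.608. Summed over the 46 genes the level was 6258 ± 160 TPM (SD, n = 3) in undifferentiated controls, 6044 ± 310 in undifferentiated BIGH3, 3904 ± 130 in differentiated controls and 4218 ± 310 in differentiated BIGH3 libraries. TPM is a share of each library, and the sum follows its most abundant genes. Over the type I-leaning genes alone it ran from 3171 to 3370 TPM in differentiated controls and from 3370 to 3847 TPM with BIGH3. These ranges met at 3370 TPM, and the group means were 3277 and 3543 TPM. Ifitm3 alone went from a mean of 468 TPM in differentiated controls to 980 TPM with BIGH3, a larger rise than that of either sum. Without Ifitm3, the mean sums of the type I-leaning genes and of all members were thus lower with BIGH3 in differentiated cells.

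Among the transcription factors, Irf1 moved with BIGH3 in the opposite direction to Irf9. Irf1 (chr11:53770014-53778374), a factor that drives both antiviral genes and antigen presentation, was at 70.9, 66.7 and 70.1 CPM in undifferentiated controls and 69.8, 66.1 and 76.6 CPM in undifferentiated BIGH3 libraries. It was at 78.4, 76.1 and 75.1 CPM in differentiated controls and 134, 141 and 142 CPM in differentiated BIGH3 libraries. All 3 differentiated BIGH3 libraries were above the other 9, and the rise over control was 0.86 ± 0.05 (log2 fold change ± SE, adjusted p = 2.07e-11). The step between states in control cells, 0.14 ± 0.05 (adjusted p = 0.0249), was lost without undifferentiated control 2 or without differentiated control 1 (0.12, adjusted p = 0.103 for each), and it was -0.00 with library totals and -0.16 with TPM.

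Irf9, the DNA-binding subunit of the complex that holds Stat2, was at 64.5, 63.8 and 60.9 CPM in undifferentiated controls, 60.4, 66.7 and 66.4 in undifferentiated BIGH3 libraries, 48.0, 49.0 and 52.5 in differentiated controls, and 38.5, 39.1 and 43.7 with BIGH3 in differentiated cells. The undifferentiated controls and the 2 differentiated groups did not overlap: Irf9 fell by 0.34 on the log2 scale between states (adjusted p = 8.61e-05) and by a further 0.30 with BIGH3 (adjusted p = 0.000603). Stat2, its partner, was at 282, 290.1 and 269 CPM in undifferentiated controls, 239.8, 267 and 271 in undifferentiated BIGH3 libraries, 132, 127 and 123 in differentiated controls, and 115, 120.2 and 139.8 in differentiated BIGH3 libraries. Stat2 thus lay at its low level in differentiated cells with and without BIGH3: the step between states was -1.14 ± 0.06 (adjusted p = 8.38e-12), and the BIGH3 difference was -0.02 ± 0.07 (adjusted p = 0.802). Irf7, which amplifies the type I response, stood at 41.1, 42.7 and 42.3 CPM in undifferentiated controls, 38.2, 37.6 and 42.1 in undifferentiated BIGH3 libraries, 32.8, 32.1 and 31.3 in differentiated controls, and 32.0, 32.3 and 42.3 with BIGH3. Irf7 fell between states (-0.39 ± 0.08, adjusted p = 0.000497), and of the differentiated BIGH3 libraries only the third lay above the controls, so that the BIGH3 difference was 0.15 ± 0.09 (adjusted p = 0.179). Irf7 overlaps Phrf1 by 45 bases on the opposite strand and Irf9 overlaps Rnf31 by 123 bases on the same strand, so reads in these stretches may be assigned to either gene.

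**Figure D3:**
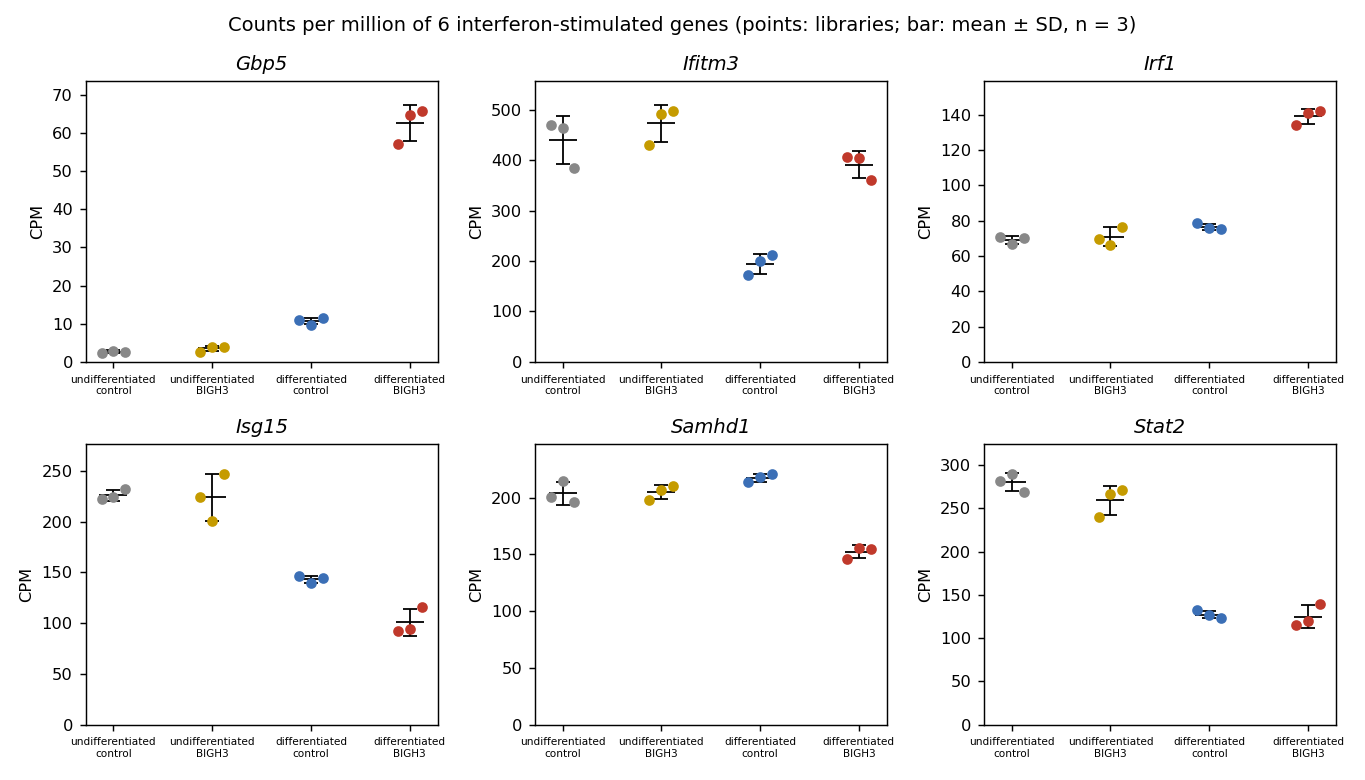
CPM (vertical axis, from 0) of Gbp5, Ifitm3, Irf1, Isg15, Samhd1 and Stat2 in the 4 groups (horizontal axis). Points are libraries and bars mean ± SD (n = 3): Gbp5 reaches 57.2 to 65.7 CPM in the differentiated BIGH3 libraries, Ifitm3 is lowest in the differentiated controls, and Samhd1 is lowest with BIGH3 in differentiated cells.

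Of the 8 GTPases, 6 fell and 2 rose between states in control cells, and BIGH3 then raised 3 and lowered 2 of them in differentiated cells. Gbp5 (chr3:142493978-142522344), a guanylate-binding protein that also promotes inflammasome assembly, was at 2.39, 2.98 and 2.72 CPM in undifferentiated controls and 2.71, 4.03 and 3.90 CPM in undifferentiated BIGH3 libraries. In differentiated controls it was at 11.0, 9.71 and 11.4 CPM, and with BIGH3 at 57.2, 64.7 and 65.7 CPM. Each differentiated group was clear of the rest: the step between states was 1.98 ± 0.13 in control cells, BIGH3 in differentiated cells added 2.54 ± 0.10 (5.82-fold, adjusted p = 2.97e-14), and the undifferentiated groups overlapped (0.38 ± 0.15, adjusted p = 1). Ordered by level per transcript length among the 46 genes, Gbp5 held place 44 in undifferentiated controls (1.37 TPM), place 42 in differentiated controls (4.28 TPM) and place 32 with BIGH3 (25.2 TPM).

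Gbp2 was at 230.2, 245 and 246 CPM in undifferentiated controls, 221, 236 and 259.6 in undifferentiated BIGH3 libraries, 207, 190.2 and 196 in differentiated controls and 273, 275 and 276 with BIGH3. It fell between states (-0.28 ± 0.05) and rose with BIGH3 to above every control library (0.47 ± 0.06, adjusted p = 4.98e-07). Gbp3 ran the other way, at 149, 157 and 174 CPM in undifferentiated controls, 151, 157 and 171 in undifferentiated BIGH3 libraries, 249, 241 and 248 in differentiated controls and 175, 171 and 193 with BIGH3. It rose between states (0.62 ± 0.06, adjusted p = 2.48e-08) and fell with BIGH3 (-0.45 ± 0.06, adjusted p = 3.14e-06), with no overlap in either case. Gbp7 was at 106, 111 and 95.7 CPM in undifferentiated controls, 87.7, 117 and 117 in undifferentiated BIGH3 libraries, 65.2, 66.5 and 74.8 in differentiated controls and 79.8, 88.1 and 103 with BIGH3. Gbp7 fell between states (-0.60 ± 0.13, adjusted p = 0.00364). Its rise with BIGH3 (0.39 ± 0.13, adjusted p = 0.0414) missed the threshold when undifferentiated control 1, differentiated control 1 or 2, or differentiated BIGH3 2 or 3 was left out, with adjusted p up to 0.143, at 0.27 without differentiated BIGH3 3.

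Of the 4 Irg GTPases, which act on vacuole membranes, all fell between states, and with BIGH3 the call was for Iigp1. Irgm1 was at 329, 334 and 320.1 CPM in undifferentiated controls, 301, 325 and 342 in undifferentiated BIGH3 libraries, 223, 228 and 227 in differentiated controls and 220.1, 216 and 229 with BIGH3. It fell by 0.54 on the log2 scale between states (adjusted p = 9.49e-09) and the BIGH3 difference was -0.03 ± 0.05 (adjusted p = 0.695), with overlapping libraries. Irgm2 was at 173, 183 and 178 CPM, then 161, 176 and 190.0, then 123, 129.6 and 128, then 112, 108 and 132 CPM in the same 4 groups, and Igtp at 102, 102 and 96.6, then 95.7, 89.1 and 111, then 74.3, 70.5 and 72.2, then 68.3, 70.5 and 70.7 CPM. Irgm2 fell between states (-0.49 ± 0.07), and so did Igtp (-0.47 ± 0.06), while with BIGH3 their differences were -0.11 ± 0.07 and -0.05 ± 0.06 (adjusted p = 0.179 and 0.534). Without differentiated BIGH3 3 the Irgm2 difference was called (-0.22, adjusted p = 0.00624). The Igtp and Irgm2 genes overlap by 7974 bases on the same strand, so the split of reads between this pair is uncertain. Iigp1 was at 233, 261 and 279 CPM in undifferentiated controls, 247, 278 and 269.7 in undifferentiated BIGH3 libraries, 232, 233 and 234 in differentiated controls and 184, 181 and 203 with BIGH3. Iigp1 fell with BIGH3 (-0.30 ± 0.06, adjusted p = 0.000549), all 3 libraries lying below every control. The smaller step between states, -0.15 ± 0.06 (adjusted p = 0.0475), held in only 4 of the 12 fits that left out 1 library, at -0.09 without undifferentiated control 3.

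The IFIT proteins bind viral RNA that lacks the host's cap methylation, and all 4 were lower in differentiated than in undifferentiated control cells. Ifit1 was at 373, 429 and 436 CPM in undifferentiated controls, 403, 389.9 and 446 in undifferentiated BIGH3 libraries, 249.6, 241 and 246 in differentiated controls and 376, 349.8 and 394 with BIGH3. Ifit1 fell between states (-0.75 ± 0.06) and rose with BIGH3 to libraries that overlapped the undifferentiated controls (0.60 ± 0.06, adjusted p = 1.08e-07). Ifit3 was at 362, 432 and 444 CPM in undifferentiated controls, 386, 404 and 451 in undifferentiated BIGH3 libraries, 256, 239 and 236 in differentiated controls and 231, 227 and 297 with BIGH3. Ifit3 fell as Ifit1 did between states (-0.76 ± 0.11), but its differentiated groups overlapped and the BIGH3 difference was 0.05 ± 0.11 (adjusted p = 0.771). Ifit2 took the course of Ifit1, with -0.53 ± 0.06 between states and 0.45 ± 0.06 with BIGH3 (adjusted p = 4.3e-06). Ifit3b was at 115, 125 and 129, then 113, 119 and 139, then 58.9, 59 and 56.7, then 49.5, 52.8 and 65.1 CPM, a fall between states (-1.08 ± 0.10) and -0.06 ± 0.10 with BIGH3. Without differentiated BIGH3 3 that difference was called (-0.20, adjusted p = 0.0473). Ifit3 and Ifit3b are near-identical copies, so their reads may be split wrongly.

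Genes of one family and one cluster took different courses. Gbp5, Gbp7, Gbp3 and Gbp2 lie in one cluster on chromosome 3 and the Ifit genes in another on chromosome 19. Within a library, CPM of Gbp2 over that of Gbp3 was 1.41 to 1.56 in undifferentiated controls, 0.790 to 0.834 in differentiated controls and 1.43 to 1.60 with BIGH3 in differentiated cells. The ratio of Ifit1 to Ifit3 was 0.982 to 1.03 and 0.976 to 1.04 in the control groups, and 1.33 to 1.63 in differentiated BIGH3 libraries. These pairs were chosen after their values were seen and were not tested as ratios. A ratio shows that 2 genes changed unequally, not which of them changed.

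**Figure D4:**
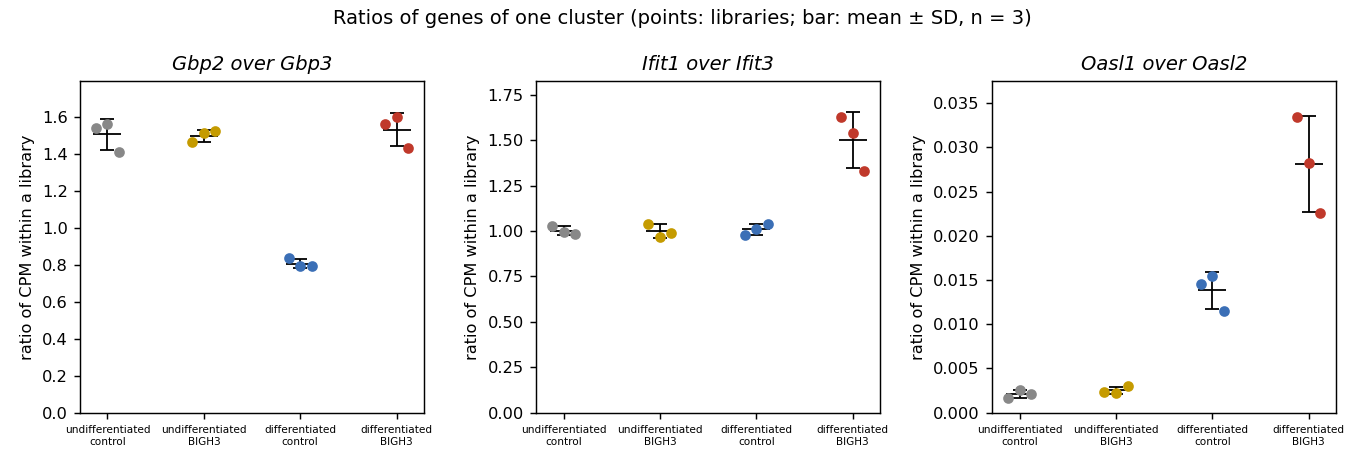
Ratio of CPM within a library (vertical axes, from 0) for 3 pairs of genes, each pair from one cluster, by group (horizontal axis); points are libraries and bars mean ± SD (n = 3). Gbp2 over Gbp3 is 0.790 to 0.834 in differentiated controls and 1.41 or more in the other groups, Ifit1 over Ifit3 is above 1.04 only with BIGH3 in differentiated cells, and Oasl1 over Oasl2 rises from 0.00213 in undifferentiated controls to 0.0281 in differentiated BIGH3 libraries (group means).

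The promoters of 6 of these genes are shown because the genes lie in one cluster or carry the same type of site and yet differ in their response: Gbp5 and Ifit1 rose with BIGH3 in differentiated cells, Gbp3 and Isg15 fell, Ifit3 was not called, and Irf1 has no ISRE core in the window. Each is the 250 bases before the start of transcription, 5′ to 3′ on the gene's strand, from RefSeq on GRCm38.p6. For Gbp5 the RefSeq start lies inside the gene span given above (chr3:142493978-142522344), not at its first base. Capitals mark GAAANNGAA, the core of the ISRE, and TTCNNNGAA, the GAS, on either strand. Gbp3 and Irf1 each had 2 RefSeq entries, and only the window that held a match is shown. The other window of each held neither motif. The windows are chr3:142496684-142496933 (plus strand) for Gbp5, chr3:142559794-142560043 (plus strand) for Gbp3, chr19:34640639-34640888 (plus strand) for Ifit1, chr19:34583279-34583528 (plus strand) for Ifit3, chr4:156200819-156201068 (minus strand) for Isg15 and chr11:53769764-53770013 (plus strand) for Irf1.
Gbp5 promoter: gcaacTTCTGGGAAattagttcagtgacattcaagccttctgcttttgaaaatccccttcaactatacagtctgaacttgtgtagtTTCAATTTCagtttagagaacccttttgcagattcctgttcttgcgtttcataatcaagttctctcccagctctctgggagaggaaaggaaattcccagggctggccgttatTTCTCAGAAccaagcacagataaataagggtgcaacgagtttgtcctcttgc
Gbp3 promoter: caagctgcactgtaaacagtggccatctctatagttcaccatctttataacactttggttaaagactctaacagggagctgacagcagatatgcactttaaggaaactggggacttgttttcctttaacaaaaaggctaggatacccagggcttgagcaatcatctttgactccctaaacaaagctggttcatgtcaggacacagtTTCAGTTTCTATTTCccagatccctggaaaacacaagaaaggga
Ifit1 promoter: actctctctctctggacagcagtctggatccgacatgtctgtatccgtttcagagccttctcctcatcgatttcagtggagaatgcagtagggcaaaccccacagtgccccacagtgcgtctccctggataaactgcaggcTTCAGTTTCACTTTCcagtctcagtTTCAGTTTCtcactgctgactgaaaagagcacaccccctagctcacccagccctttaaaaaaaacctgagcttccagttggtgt
Ifit3 promoter: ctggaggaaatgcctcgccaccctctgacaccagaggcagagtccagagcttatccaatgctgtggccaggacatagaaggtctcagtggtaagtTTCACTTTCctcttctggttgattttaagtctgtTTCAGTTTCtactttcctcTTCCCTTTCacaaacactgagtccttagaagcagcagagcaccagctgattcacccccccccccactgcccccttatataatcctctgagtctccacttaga
Isg15 promoter: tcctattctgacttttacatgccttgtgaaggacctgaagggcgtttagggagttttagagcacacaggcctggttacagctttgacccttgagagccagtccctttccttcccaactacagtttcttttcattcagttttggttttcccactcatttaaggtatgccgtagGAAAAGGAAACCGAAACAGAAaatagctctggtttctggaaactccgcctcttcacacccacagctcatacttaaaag
Irf1 promoter: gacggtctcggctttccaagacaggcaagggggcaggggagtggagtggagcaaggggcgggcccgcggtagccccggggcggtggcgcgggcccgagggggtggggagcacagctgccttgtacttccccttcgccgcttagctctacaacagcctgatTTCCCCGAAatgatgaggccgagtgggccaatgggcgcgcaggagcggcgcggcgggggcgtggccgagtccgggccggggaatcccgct

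In Gbp5 an ISRE core stood 164 to 156 bases before the start and 2 GAS matches stood 245 to 237 and 52 to 44 bases before it. The Gbp3 window shown held 2 overlapping ISRE cores from 44 to 30 bases before the start, and no GAS. Ifit1 and Ifit3 held 3 ISRE cores each, Isg15 held 3 overlapping ones from 78 to 58 bases before the start, and Irf1 held 1 GAS 90 to 82 bases before it. Of 32851 promoters of the same length, 7.13% held the ISRE core and 7.02% the GAS. RefSeq entries matched 35 members, of which 18 held the ISRE core and 10 the GAS in at least 1 entry. Counted per promoter, as for all genes, 46.2% and 25.6% of the members' 39 promoters held them. Each of the 7 matched GTPases had an entry with the ISRE core, though 1 of the 2 Gbp3 entries lacked it. By response to BIGH3 in differentiated cells the ISRE core was in 5 of 11 members that rose, 4 of 10 that fell and 9 of 14 that were not called, and the GAS in 4, 4 and 2. A match of letters is a description of these windows and not evidence of a bound factor. No entry was matched for Mx1, Mx2, Oas2, Usp18, Dhx58, Iigp1, Ifi27, Parp9, Parp14, Rtp4 and Zbp1.

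The OAS family, whose classic members make the oligoadenylates that activate RNase L, divided between its members. Oasl1 was at 0.610, 0.981 and 0.803 CPM in undifferentiated controls, 0.770, 0.843 and 1.20 in undifferentiated BIGH3 libraries, 3.18, 3.16 and 2.47 in differentiated controls and 5.56, 4.76 and 4.76 with BIGH3. Though low, Oasl1 rose in both steps without overlap, by 1.87 ± 0.25 between states (adjusted p = 1.84e-06) and 0.77 ± 0.22 with BIGH3 (adjusted p = 0.00723). Oasl2, its neighbour, was at 362, 382 and 375 CPM in undifferentiated controls, 334, 372 and 405 in undifferentiated BIGH3 libraries, 219.8, 204 and 214 in differentiated controls and 166, 168 and 211 with BIGH3. Oasl2 fell between states (-0.81 ± 0.09), and its fall with BIGH3 (-0.23 ± 0.09, adjusted p = 0.0446), with overlapping libraries, held in only 3 of the 12 fits without 1 library (-0.36 to -0.17, adjusted p up to 0.146). Oas3 was at 22.4, 22.4 and 21.8, then 22.2, 20.3 and 27.1, then 38.8, 40.3 and 37.1, then 29.1, 32.6 and 39.7 CPM. It rose between states (0.80 ± 0.11), though with TPM this was 0.23 (adjusted p = 0.174), and its BIGH3 difference of -0.20 ± 0.10 (adjusted p = 0.131) was called without differentiated BIGH3 3 (-0.34, adjusted p = 0.0067). Oas1a was at 79.5, 79.3 and 77.5 CPM in undifferentiated controls, 76.2, 73.2 and 88.8 in undifferentiated BIGH3 libraries, 90.8, 85.5 and 82.8 in differentiated controls and 59.3, 61.9 and 73.7 with BIGH3, a fall of 0.41 on the log2 scale in differentiated cells (adjusted p = 0.000368) with no overlap. Oas2 fell between states (-0.70 ± 0.14) and differed by 0.08 ± 0.14 with BIGH3.

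Isg15, which is conjugated to proteins and also secreted, fell in both steps. It was at 222, 224 and 232 CPM in undifferentiated controls, 224, 200.4 and 247 in undifferentiated BIGH3 libraries, 146, 139 and 144 in differentiated controls and 92.1, 93.8 and 116 with BIGH3. The differentiated groups did not overlap with each other or with the undifferentiated ones: the steps were -0.66 ± 0.08 between states (adjusted p = 6.09e-06) and -0.51 ± 0.08 with BIGH3 (adjusted p = 0.000166). Usp18, the protease that removes Isg15 and blunts Ifnar2 signalling, was at 93.7, 110.0 and 100.1 CPM in undifferentiated controls, 92.2, 93.6 and 103 in undifferentiated BIGH3 libraries, 92.0, 92.1 and 94.6 in differentiated controls and 79.9, 73.6 and 86.8 with BIGH3. Usp18 was below every control library with BIGH3 (-0.21 ± 0.06, adjusted p = 0.00958), a call lost without differentiated BIGH3 2 (-0.16, adjusted p = 0.0637), and its step between states was -0.13 ± 0.06 (adjusted p = 0.0936).

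Among membrane and secreted products, Ifitm3 had the largest fall between states and the largest rise with BIGH3 of the type I-leaning genes. It was at 470.4, 463 and 384 CPM in undifferentiated controls, 429.7, 491 and 497 in undifferentiated BIGH3 libraries, 173, 200.3 and 211 in differentiated controls and 407, 405 and 361 with BIGH3. With BIGH3 the differentiated libraries overlapped the undifferentiated controls, well above their own controls: the steps were -1.17 ± 0.10 (adjusted p = 5.37e-07) and 1.01 ± 0.10 (adjusted p = 3.51e-06). Bst2, which tethers budding virions, rose between states (0.50 ± 0.07) and fell with BIGH3 (-0.30 ± 0.07, adjusted p = 0.00125). Ifi27 was at 58.9, 54.3 and 42.6 CPM in undifferentiated controls, 48, 51 and 48.5 in undifferentiated BIGH3 libraries, 106, 109 and 105 in differentiated controls and 81.8, 83.7 and 78.1 with BIGH3. It rose between states (1.04 ± 0.08) and fell with BIGH3 (-0.39 ± 0.08, adjusted p = 0.00105), again without overlap. Lgals3bp, a secreted glycoprotein, was at 266, 253 and 271 CPM in undifferentiated controls, 255, 251 and 271 in undifferentiated BIGH3 libraries, 259, 261 and 255 in differentiated controls and 193, 196 and 209 with BIGH3 (-0.37 ± 0.05, adjusted p = 2.13e-06), and its step between states was -0.03 ± 0.05.

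The sensors of foreign or misplaced nucleic acid also divided. Zbp1, a Z-form nucleic acid sensor that can start necroptosis, was at 53.3, 57.2 and 50.7 CPM in undifferentiated controls, 47.8, 53.2 and 57.5 in undifferentiated BIGH3 libraries, 56.6, 57.7 and 61.5 in differentiated controls and 85.3, 86.8 and 101 with BIGH3. The differentiated BIGH3 libraries lay above all others (0.63 ± 0.07, adjusted p = 5.84e-07), the step between states being 0.12 ± 0.07 (adjusted p = 0.154). Eif2ak2, the kinase PKR, fell with BIGH3 (-0.30 ± 0.06, adjusted p = 0.000652). Trim25, a ubiquitin ligase that acts on RIG-I, was at 89.2, 96.6 and 95.6, then 91.8, 90.2 and 95.6, then 51.0, 56.1 and 51.2, then 58.3, 60.5 and 72.6 CPM. It fell between states (-0.83 ± 0.07) and rose with BIGH3 (0.27 ± 0.07, adjusted p = 0.00306; 0.16 and adjusted p = 0.0423 without differentiated BIGH3 3). Ddx58, which encodes RIG-I, fell between states (-0.72 ± 0.05), and its BIGH3 rise of 0.14 ± 0.05 (adjusted p = 0.0403) was lost without any one of the 3 differentiated controls or differentiated BIGH3 2 or 3, at 0.07 without the last. Dhx58 gave -0.39 ± 0.12 with BIGH3 (adjusted p = 0.0194), lost without differentiated control 1 or differentiated BIGH3 1 or 2 (-0.37 to -0.26, adjusted p up to 0.0721). Ifih1, which encodes MDA5, differed by 0.01 ± 0.09 with BIGH3.

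Of the 3 genes that act on nucleotides, Samhd1, a dNTP hydrolase that limits reverse transcription, was at 200.4, 215 and 196 CPM in undifferentiated controls, 198, 207 and 210.2 in undifferentiated BIGH3 libraries, 214, 218 and 221 in differentiated controls and 146, 156 and 155 with BIGH3. Samhd1 was lower in that last group than in every other library (-0.51 ± 0.05, adjusted p = 2.2e-08). Rsad2, the enzyme viperin, was at 2.20, 2.45 and 2.20, then 1.82, 1.92 and 2.28, then 5.62, 6.27 and 6.04, then 8.43, 6.20 and 8.73 CPM. It rose between states (1.38 ± 0.17, adjusted p = 5.57e-07) and the BIGH3 difference was 0.38 ± 0.16 with overlapping libraries (adjusted p = 0.0534). Cmpk2, a mitochondrial nucleotide kinase next to Rsad2, was at 3.38, 4.13 and 4.19 CPM in undifferentiated controls, 4.21, 3.23 and 4.14 in undifferentiated BIGH3 libraries, 3.14, 4.34 and 2.93 in differentiated controls and 4.33, 5.19 and 6.38 with BIGH3. In differentiated cells the highest control library lay just above the lowest BIGH3 library, and the rise of 0.61 ± 0.19 (adjusted p = 0.014) was lost without differentiated control 1 or 3 or differentiated BIGH3 3 (0.53, 0.49 and 0.44).

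Of the remaining members, Ifi35 was at 70.8, 71.4 and 80.7 CPM in undifferentiated controls, 73.4, 64.5 and 75.5 in undifferentiated BIGH3 libraries, 79.7, 69.5 and 73.4 in differentiated controls and 48.0, 44.8 and 47.3 with BIGH3. The fall with BIGH3 in differentiated cells was the largest of the 46 genes (-0.67 ± 0.07, adjusted p = 8.69e-08), and the step between states was -0.00 ± 0.07. Mx2, a dynamin-like GTPase against viruses, was at 36.3, 34.0 and 30.5 CPM in undifferentiated controls, 26.0, 29.4 and 30.9 in undifferentiated BIGH3 libraries, 16.9, 17.8 and 16.1 in differentiated controls and 15.4, 15.6 and 21 with BIGH3. Mx2 fell between states (-0.99 ± 0.10) and differed by 0.03 ± 0.11 with BIGH3. Mx1 was low and scattered, from 0.428 to 6.70 CPM, and no comparison called it. Of the mono-ADP-ribosyl transferases Parp9, Parp12 and Parp14 and the ligase Dtx3l, BIGH3 raised Parp14 (0.33 ± 0.06, adjusted p = 9.09e-05), and the other 3 differed by -0.04 to 0.13 and were not called. Parp9 and Dtx3l overlap on opposite strands and the strand of the libraries was not stated, so their shared reads could not be told apart. Xaf1, Rtp4 and Ifi44 fell between states (-0.39, -0.29 and -0.39), though Xaf1 was not called without the 3 libraries richest in liver transcripts (-0.34, adjusted p = 0.0649). With BIGH3 in differentiated cells Rtp4 and Ifi44 were not called. Xaf1 differed by -0.28 ± 0.10 (adjusted p = 0.0515) without overlap. This fall was called under 12 of 21 alternatives, which include fits that left out libraries. Among the 12 were DESeq2 (adjusted p = 0.0061) and the compared groups alone (adjusted p = 0.00103). Reads of Rtp4 likewise could not be told apart from those of Masp1, which overlaps it by 525 bases on the opposite strand and held 184% of its reads.

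With BIGH3 present, the step between states was wider for some genes and narrower for others, such as Ifitm3 (-1.17 ± 0.10 in control cells and -0.27 ± 0.09 in BIGH3 cells). Differentiated against undifferentiated BIGH3 cells gave 12 members higher and 27 lower, against 28.9% and 27.7% of all genes. With library totals the split was 8 and 31 and with TPM 6 and 32. Over all genes the share higher among called genes then went from 51.1% to 36.9% and 26.9%. Gbp5 rose most (4.14 ± 0.12, 17.7-fold), followed by Oasl1 (2.41 ± 0.24) and Rsad2 (1.95 ± 0.17), and Isg15 fell most (-1.16 ± 0.08), followed by Ifit3b (-1.15 ± 0.10) and Stat2 (-1.05 ± 0.06). Among these genes the step differed from that in control cells by the interaction test below for Gbp5 and Isg15 alone. Ifit1, which fell in control cells, gave -0.15 ± 0.06 here (adjusted p = 0.0528). That fall was called under 12 of 21 alternatives, which include fits that left out libraries. Among the 12 were DESeq2 (-0.14, adjusted p = 0.0433), library totals (-0.26, adjusted p = 0.00252) and TPM (-0.34, adjusted p = 0.00577).

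The BIGH3 response of 19 members differed between the states by a test of the interaction of both factors, 9 larger in differentiated cells and 10 lower, against 16.2% and 16.0% of all genes. For Gbp5 the BIGH3 log2 fold change was 2.16 ± 0.18 larger in differentiated cells (adjusted p = 8.68e-09), for Ifitm3 0.90 ± 0.13 (adjusted p = 0.000295) and for Irf1 0.83 ± 0.07 (adjusted p = 2.28e-08). For Ifi35 it was -0.61 ± 0.10 (adjusted p = 4.66e-05), for Samhd1 -0.52 ± 0.07 (adjusted p = 4.29e-06) and for Isg15 -0.49 ± 0.12 (adjusted p = 0.00474). Gbp2 and Gbp3, of one cluster, gave 0.48 ± 0.08 and -0.45 ± 0.09. Of the pair Ifit1 and Ifit3, the interaction called Ifit1 alone (0.60 ± 0.09). With TPM the split was 10 higher and 5 lower. Over all genes the share higher among called genes then went from 50.3% to 66%.

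Interferon itself was all but unread. Of 21 ligand genes listed, 15 had 0 reads in every library, Ifng and the Ifnl genes among them, and the list summed to 0.608 to 1.41 CPM in a library. Ifnb1 and Ifnz, with 98 and 145 reads over the 12 libraries, were the only ones tested, and neither was called in any comparison. Ifnb1 was at 0.372, 0.519 and 0.320 CPM in differentiated controls and 0.228, 0.374 and 0.280 with BIGH3. A count of 0 at this depth allows up to the floor given above, and it says nothing of interferon carried by serum.

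Receptors and kinases of the pathway moved in differentiated cells treated with BIGH3, where 7 of 8 tested genes rose and 1 fell, against 22.6% and 22.9% of all genes. Jak2 was at 79.2, 76.5 and 85.2 CPM in differentiated controls and 213, 211 and 199.7 with BIGH3 (1.37 ± 0.06, adjusted p = 9.6e-14). Ifnar2 was at 60.3, 61.3 and 64.1 CPM and then 133, 130.1 and 122 (1.05 ± 0.05). Ifngr2 rose by 0.84 ± 0.06, Il10rb, shared with interleukin-10, by 0.53 ± 0.05, Tyk2 by 0.51 ± 0.08, Ifnar1 by 0.43 ± 0.05 and Ifngr1 by 0.22 ± 0.06. Jak1 fell, at 357, 353 and 351 CPM in differentiated controls against 275, 266 and 257 with BIGH3 (-0.41 ± 0.05, adjusted p = 5.51e-07). In undifferentiated cells 0 of these 8 were called, where 0.0204% of all genes were.

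Of 7 brakes on the pathway, BIGH3 raised 3 and lowered 2 in differentiated cells. Socs3, which blocks Jak kinases on receptors of the interleukin-6 type, was at 99.3, 102 and 97.0 CPM in controls and 268, 245 and 224 with BIGH3 (1.30 ± 0.07), and the phosphatases Ptpn1 and Ptpn2 rose by 0.57 ± 0.04 and 0.43 ± 0.08. Socs1, the brake that interferon gamma induces most directly, was low (2.24 to 5.19 CPM in differentiated controls) and differed by 0.14 ± 0.26. Of 8 tested genes known to lean to interferon gamma, 6 rose and 1 fell: Cxcl10, a chemokine, went from 27.0, 29.6 and 28.6 CPM to 91.1, 89.5 and 88.1 CPM (1.66 ± 0.08), and Psmb8, a subunit of the immunoproteasome, fell (-0.25 ± 0.09, adjusted p = 0.0313). Of 15 further GTPases, 5 rose and 1 fell, with Ifi47 the largest called rise (0.58 ± 0.06) and Gm4951 the fall (-0.33 ± 0.08). Of 8 sensing adaptors and kinases, 4 rose and 1 fell: Tmem173, which encodes STING, from 1.03 to 1.42 CPM up to 3.58 to 4.38 CPM (1.78 ± 0.26), and Ikbke by 0.64 ± 0.06. All these counts stand beside 22.6% and 22.9% of all genes.

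**Figure D5:**
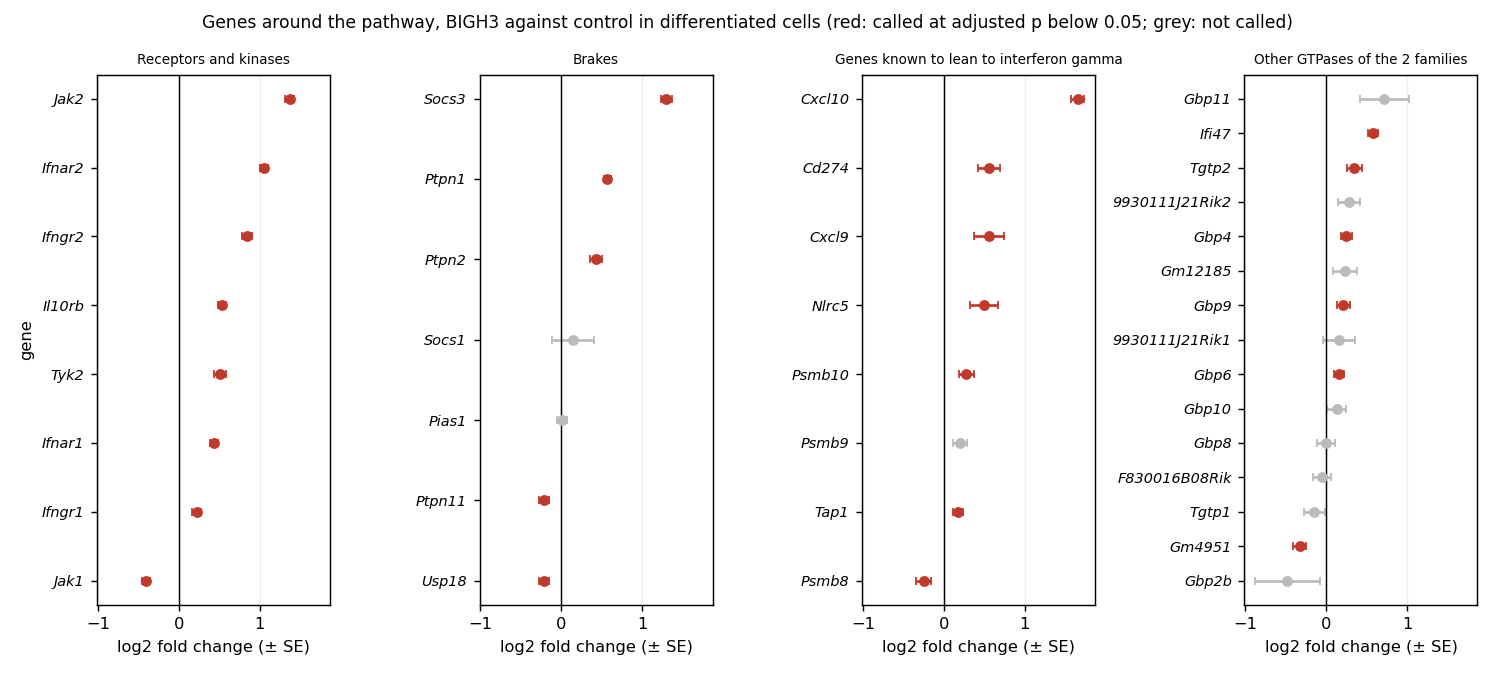
Log2 fold change ± SE (horizontal axes, n = 3 libraries a group) for BIGH3 against control in differentiated cells, for genes (vertical axes) of 4 lists around the pathway. Red points passed an adjusted p of 0.05 and grey points did not. Jak2, Socs3 and Cxcl10 lie above 1, and Jak1 below 0.

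One library lay high for most of the group. Differentiated BIGH3 3 held the highest CPM of its group for 39 of 46 members, against 34.4% of all genes, and undifferentiated BIGH3 3 for 38 of 46, against 29.6%. Of the other libraries with liver transcripts, undifferentiated control 2 was highest for 24 of 46 members, against 29.5% of all genes. Differentiated control 2 was highest for 16, against 31.3%, and undifferentiated BIGH3 1 for 1, against 34.7%. Differentiated BIGH3 3 carried the liver transcripts named above and was the shallowest library, and undifferentiated BIGH3 3 had the lowest liver markers of its group; the part of either in these levels was not tested. Without differentiated BIGH3 3 the counts for BIGH3 in differentiated cells were 10 higher and 17 lower, and the median of the type I-leaning genes was -0.12. Over all genes that fit called 2885 higher and 3178 lower. The calls of Gbp5, Ifitm3, Irf1, Zbp1, Ifit1, Gbp2, Ifi35, Isg15, Samhd1 and Gbp3 held in all 12 fits that left out 1 library. With TPM the BIGH3 calls in differentiated cells were lost for Ifi27 (-0.26, adjusted p = 0.0781), Trim25 (0.27, adjusted p = 0.0517), Usp18 (-0.17, adjusted p = 0.121), Dhx58 (-0.27, adjusted p = 0.184) and Ddx58 (0.20, adjusted p = 0.0697), and the interaction of Isg15 was -0.40 (adjusted p = 0.0525).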

How the data were processed

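RNA of 12 libraries was prepared with a KAPA kit, per the labels' protocols. FastQC, cutadapt, StringTie, Salmon and the mm10 build are listed in the submitters' processing notes, without versions. The deposited files hold, per transcript, estimated counts (expected counts, not whole numbers), TPM scaled by the authors for effective length and library, and that effective length itself, per the file headers. Identifiers of 137063 of 147828 transcripts matched GENCODE M21 (GRCm38) once the version suffix was dropped; unmatched transcripts held 1.28% to 3.67% of a library's reads. Estimated counts were summed per gene and rounded, and TPM summed. Genes kept by filterByExpr were fitted with edgeR 4.0.16 (TMM, quasi-likelihood, robust, 1 term per group, 12 libraries, 8 residual degrees of freedom) in R 4.3.3. Variation between libraries of a group beyond counting error was 8.18% (coefficient of variation), and log2 fold changes had a median standard error of 0.089. Tests were two-sided, with Benjamini-Hochberg adjustment over 14711 genes. CPM are TMM-scaled and given per library or as mean ± SD. Reads were not told apart by strand. Floors cover counting error only.

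The members and gene lists were chosen with earlier results of these data known, and no list was tested as a set. Values in every library are given for the 8 GTPases, Irf1, Irf7, Irf9, Stat2, Isg15, Usp18 and up to 6 called rises and 6 called falls per comparison, other members by 1 value or a range. One listed adaptor was not found by its symbol. The lists' counts leave out 2 listed genes that are not reported here. Alternatives were DESeq2 1.42.0, library totals, no low-count filter, a replicate block, log2(TPM + 0.5) with limma 3.58.1, a length offset, the compared groups alone, leaving out the libraries with liver transcripts, and leaving out each library. The edgeR fit was tested on simulated data.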

Additional observations from a re-analysis of the deposited data

Results flagged for a closer look

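The BIGH3 response of 19 members differed between differentiated and undifferentiated cells by the interaction test. The differences in log2 fold change (differentiated minus undifferentiated) were 2.16 for Gbp5, 0.90 for Ifitm3, 0.83 for Irf1, 0.66 for Zbp1, 0.60 for Ifit1, 0.48 for Gbp2, 0.39 for Ifit2, 0.37 for Parp14 and 0.29 for Trim25. They were -0.61 for Ifi35, -0.52 for Samhd1, -0.49 for Isg15, -0.45 for Gbp3, -0.43 for Oas1a, -0.35 for Lgals3bp, -0.34 for Iigp1, -0.34 for Irf9, -0.33 for Eif2ak2 and -0.27 for Bst2. The calls of Bst2, Eif2ak2, Iigp1, Isg15, Oas1a and Trim25 were lost under at least 1 of the 20 alternatives, and the other 13 held under all of them. Of those losses with 1 library left out, Bst2 held in 5 of 12 fits (-0.36 to -0.19) and Trim25 in 7 of 12 (0.18 to 0.35), Trim25 being lowest without differentiated BIGH3 3.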

How the results depend on the processing

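Of 480 recomputed counts and medians, 439 stayed close to the main value. For a count this meant a set ratio to the main count. For a median it meant a shift below the replicate SD of the class median (0.05 for the type I-leaning genes and 0.09 for the GTPases). A change of sign of a median was not looked at. With BIGH3 in differentiated cells, 9 of 13 rises and 10 of 14 falls held under all 21 alternatives. In undifferentiated cells 0 members were called under any, and the count over all genes was 3, then 8 with DESeq2, 21 with no low-count filter, 1 with TPM, 1 with a length offset, 0 with the compared groups alone, 1 without the 3 libraries richest in liver transcripts, 5 without these and undifferentiated BIGH3 1, and 0 to 3 without 1 library. The median of the type I-leaning genes there was -0.08 with TPM, 0.05 without the 4 libraries and -0.07 to 0.02 without 1 library. With BIGH3 in differentiated cells it was -0.11 without the 3 libraries, -0.09 without the 4, and -0.12 to 0.03 without 1, the ends being differentiated BIGH3 3 and 1. Between states in control cells the medians of type I-leaning genes and GTPases were -0.49 and -0.52 with library totals and -0.59 and -0.65 with TPM, and with a length offset that of the type I-leaning genes was -0.28; 6 members were higher with TPM. In BIGH3 cells they were -0.40 and -0.48 with library totals and -0.51 and -0.57 with TPM, with 6 members higher. Without the 3 libraries the type I-leaning median was -0.40, without the 4 the medians were -0.42 and -0.50, and without 1 library the type I-leaning median ran from -0.40 to -0.24. For the interaction 5 members were lower with TPM, where 66% of all called genes were higher. Library totals changed the sign of the step between states in control cells for Irf1 (-0.00) and Parp14 (-0.15). TPM changed the sign for Irf1 (-0.16), Dhx58 (-0.18), Parp14 (-0.29) and Samhd1 (-0.22). In BIGH3 cells TPM changed the sign for Ifih1 (-0.03) and Gbp3 (-0.06). None of these steps was called in both directions. Parp14 and Samhd1 were not called in the main fit, and the others were not called after the change. The cause of these shifts was not tested, beyond the shift of all genes given with the scalings. Same-numbered libraries of different groups did not deviate together (median r = -0.0399 over 18 pairs, against 0.0548 over 36 pairs of unlike number), and the replicate block gave 14 members higher and 14 lower with BIGH3 in differentiated cells and 3285 genes higher and 3354 lower. Depth limits Oasl1, Rsad2, Cmpk2, Mx1 and the interferons.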
